A study of Mus musculus with 6 samples.

Results

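The core circadian clock genes were examined in haematopoietic stem cells (HSCs) of wild type and Chrm1-/- mice. The members were chosen by name as 10 genes that form the transcriptional loop of the mammalian clock: the activators Arntl and Clock, the repressors Per1, Per2, Per3, Cry1 and Cry2, the nuclear receptors Nr1d1 and Nr1d2, and the output factor Dbp. Of these, 9 had an array row annotated to a single gene, among 22180 such genes, and all 9 were bright enough to be tested, which took a mean log2 signal of at least 6.77, the median over these genes. Per2 shared its row with another symbol and was not analysed here.

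The series holds 6 arrays of C57Bl/6 mouse bone marrow cells taken at steady state, without any treatment, and sorted for Sca1 and cKit, and against lineage markers and Flt3. Wild type cells gave 3 arrays, and cells lacking Chrm1, the gene of a muscarinic acetylcholine receptor, gave 3. The sources used here do not state whether the receptor was lost in every tissue, whether an array holds 1 mouse or several, or the age, sex and hour of day at collection. The series concerns a route from this receptor in the central nervous system through glucocorticoids to HSC mobilization, and the comparison asked how levels in resting HSCs differ with the receptor gene.

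The clock is a feedback loop that runs inside most cells with a period of about a day. BMAL1, the product of Arntl, pairs with CLOCK, binds E-box sequences and activates the Per, Cry, Nr1d and Dbp genes, and PER and CRY proteins then return to the nucleus and repress that activity. REV-ERB proteins, made from Nr1d1 and Nr1d2, repress Arntl through ROR response elements (ROREs), so that in tissues with a running clock the Arntl transcript peaks when those of Nr1d1 and Dbp are low. Glucocorticoids induce Per1 in many cells and can set the phase of peripheral clocks, and in bone marrow the release of HSCs follows a daily rhythm driven by sympathetic nerves.

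The RefSeq promoter table, on GRCm38.p6, held 13 windows for the 9 measured genes, each from 250 bases before to 50 after a start site, and 4 of the genes carried at least 1 match to the clock motifs searched on both strands. The stretches below are shown because they hold a motif of a clock regulator in a gene whose levels are compared later. These are E-boxes in Per1 and Cry1, D-boxes, to which DBP binds, in Per3, and a RORE core in Arntl. The windows of Clock, Cry2, Nr1d1, Nr1d2 and Dbp held no match, and that of Per3 held no E-box. Only exact words within windows of 300 bases were searched, so elements elsewhere or of other spelling would be missed. Capitals mark the motif, and each sequence reads 5′ to 3′ on the strand of the gene.

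Per1 (chr11:69098743-69098828, plus strand): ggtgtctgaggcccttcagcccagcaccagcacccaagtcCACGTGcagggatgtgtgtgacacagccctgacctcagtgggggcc
Cry1 (chr10:85185069-85185154, minus strand): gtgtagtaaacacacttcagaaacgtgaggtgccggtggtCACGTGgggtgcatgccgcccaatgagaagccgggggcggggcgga
Per3 (chr4:151044776-151044910, minus strand): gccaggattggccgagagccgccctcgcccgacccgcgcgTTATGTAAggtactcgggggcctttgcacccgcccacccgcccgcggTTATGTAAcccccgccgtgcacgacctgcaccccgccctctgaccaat
Arntl (chr7:113207531-113207560, plus strand): aggcagaaagTAGGTCAgggacggaggtgc

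The E-box CACGTG began 166 bases before the start site in Per1 and 60 bases before it in Cry1, and 7.15% of all 32851 windows in the table held it. The D-box was searched as TTATGTAA, TTACGTAA, TTATATAA and TTACATAA, words that include each other's reverse complements, and 1.59% of all windows held one. Per3 had 2 copies of TTATGTAA, which began 205 and 158 bases before the start. The RORE core, TAGGTCA or TGGGTCA, began at base 31 after the start in 1 of the 2 overlapping Arntl windows and was in 6.45% of all windows. Counted by gene, 8.09% of the 27025 genes in the table held the E-box, 1.86% the D-box and 7.35% the RORE core. The share of genes with any of these motifs was not counted. A match is a run of letters and does not show that a factor was bound there.

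None of the core clock genes differed between Chrm1-/- and wild type HSCs beyond the spread between arrays. Of the 9 genes, 4, beside 50% of all tested genes, had a higher mean signal in Chrm1-/- (Per1, Cry2, Nr1d1 and Nr1d2) and 5 a lower one (Arntl, Clock, Per3, Cry1 and Dbp), and the 2 groups of arrays overlapped for each of the 9. In limma 0 of the 9 passed an adjusted p of 0.05, with 0 also at an unadjusted p under 0.05 and a smallest unadjusted p of 0.175. Over the 11094 genes tested, 0% passed the adjusted threshold, 2.99% had an unadjusted p under 0.05 and 5.79% had groups that did not overlap. The adjusted p was 0.996 for each of the 9 genes. In sorted bulk cells, fewer cells of a type and less RNA per cell cannot be told apart. Their median log2 difference was -0.13, beside a median that rounded to zero over all tested genes, and its sign turned on leaving out wild type replicate 1 (0.0033), wild type replicate 3 (0.06) or Chrm1-/- replicate 1 (0.0083).

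**Figure D1:**
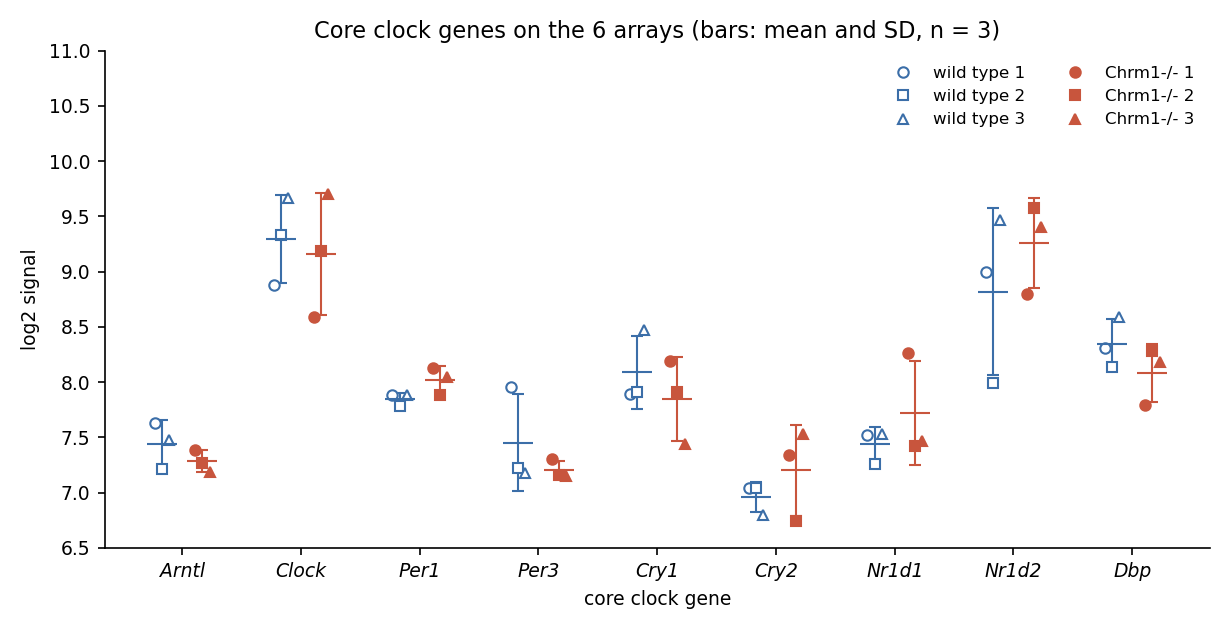
Log2 signal (vertical axis) of the 9 measured core clock genes (horizontal axis) on each array, with open blue symbols for wild type, filled red symbols for Chrm1-/-, symbol shape for the replicate number, and bars for the mean and SD of 3 arrays. The red and blue symbols overlap for every gene, and single arrays stand apart for Per3 (wild type 1 at 7.96), Nr1d1 (Chrm1-/- 1 at 8.26) and Nr1d2 (wild type 2 at 7.99).

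Among the activators, Arntl read 7.63, 7.21 and 7.48 on the wild type arrays and 7.39, 7.27 and 7.19 on the Chrm1-/- arrays. The highest value was in wild type and the lowest in Chrm1-/-, with the other 4 interleaved. The difference, Chrm1-/- minus wild type, was -0.16 ± 0.14 (SE) with a 95% interval from -0.50 to 0.19 in limma. Clock, a histone acetyltransferase and the partner of BMAL1, read 8.88, 9.33 and 9.67 in wild type and 8.59, 9.19 and 9.70 in Chrm1-/-. Replicate 1 was the lowest and replicate 3 the highest in both genotypes, so the spread within each group, with SDs of 0.40 and 0.56, was wider than the gap between the means. The Clock difference of -0.13 ± 0.33 (SE) became 0.06 without wild type replicate 3, 0.15 without Chrm1-/- replicate 1 and -0.05 with array weights.

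Of the period genes, Per1, which also responds directly to glucocorticoids, had the narrowest spread of the 9 genes over the 6 arrays. It read 7.88, 7.78 and 7.88 in wild type and 8.13, 7.88 and 8.05 in Chrm1-/-. No Chrm1-/- array lay below any wild type array, but 3 arrays of both genotypes shared the value 7.88. The means were 7.85 ± 0.06 (SD, n = 3) and 8.02 ± 0.13 (SD, n = 3), and the 95% interval of the difference ran from -0.10 to 0.45, so that a change of Per1 beyond 1.36-fold upward or 1.07-fold downward lay outside it. The glucocorticoid genes beside it had smaller differences, 0.03 for Fkbp5, 0.06 for Tsc22d3 and 0.13 for the receptor gene Nr3c1.

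Per3, a period gene that is dispensable for the core rhythm in mice, read 7.96, 7.22 and 7.18 in wild type and 7.30, 7.16 and 7.15 in Chrm1-/-. Wild type replicate 1 stood above the other 5 arrays, which lay between 7.15 and 7.30. The difference of -0.25 ± 0.23 (SE) rested on that array, and was 0.0033 without it.

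The cryptochrome genes, whose proteins are the main repressors of the BMAL1 and CLOCK pair, had means that differed in opposite directions. Cry1 read 7.89, 7.91 and 8.47 in wild type and 8.19, 7.91 and 7.44 in Chrm1-/-, where the third replicates held both the highest and the lowest value. Its difference of -0.24 ± 0.25 (SE) was -0.05 without wild type replicate 3 and -0.04 without Chrm1-/- replicate 3. Cry2 read 7.04, 7.04 and 6.80 in wild type and 7.34, 6.74 and 7.53 in Chrm1-/-. Chrm1-/- replicate 2 was the lowest of all 6 arrays and the other Chrm1-/- arrays were the 2 highest. The Cry2 difference was 0.24 ± 0.22 (SE), and without Chrm1-/- replicate 2 it was 0.48 with an unadjusted p of 0.0221, while its adjusted p in limma was then 0.9997.

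The REV-ERB genes Nr1d1 and Nr1d2 had the largest differences among the 9 genes, both toward higher signal in Chrm1-/-, and each rested on 1 array. Nr1d1 read 7.52, 7.26 and 7.53 in wild type and 8.26, 7.42 and 7.47 in Chrm1-/-. Chrm1-/- replicate 1 stood apart, and the other 5 arrays lay within 7.26 and 7.53. The difference of 0.28 ± 0.25 (SE) was 0.0083 without that array. Nr1d2 read 9.0, 7.99 and 9.47 in wild type and 8.80, 9.58 and 9.40 in Chrm1-/-, with wild type replicate 2 far below the rest. Its SD over the 6 arrays lay at percentile 93.2 of all tested genes. Its difference of 0.44 ± 0.41 (SE) was 0.03 without wild type replicate 2, 0.77 without wild type replicate 3 and 0.75 with array weights.

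Dbp, a D-box transcription factor and one of the strongest rhythmic outputs of the clock in many tissues, read 8.31, 8.14 and 8.59 in wild type and 7.79, 8.28 and 8.18 in Chrm1-/-. The lowest array was Chrm1-/- replicate 1 and the highest wild type replicate 3. The means were 8.35 ± 0.23 (SD, n = 3) and 8.08 ± 0.26 (SD, n = 3), a difference of -0.26 ± 0.19 (SE) with a 95% interval from -0.71 to 0.19, and of -0.16 with array weights. On the single values of each gene, two-sided exact permutation tests of the 3 against 3 arrays gave p between 0.3 and 0.8 for the 9 genes, where 0.1 is the smallest that this design allows.

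**Figure D2:**
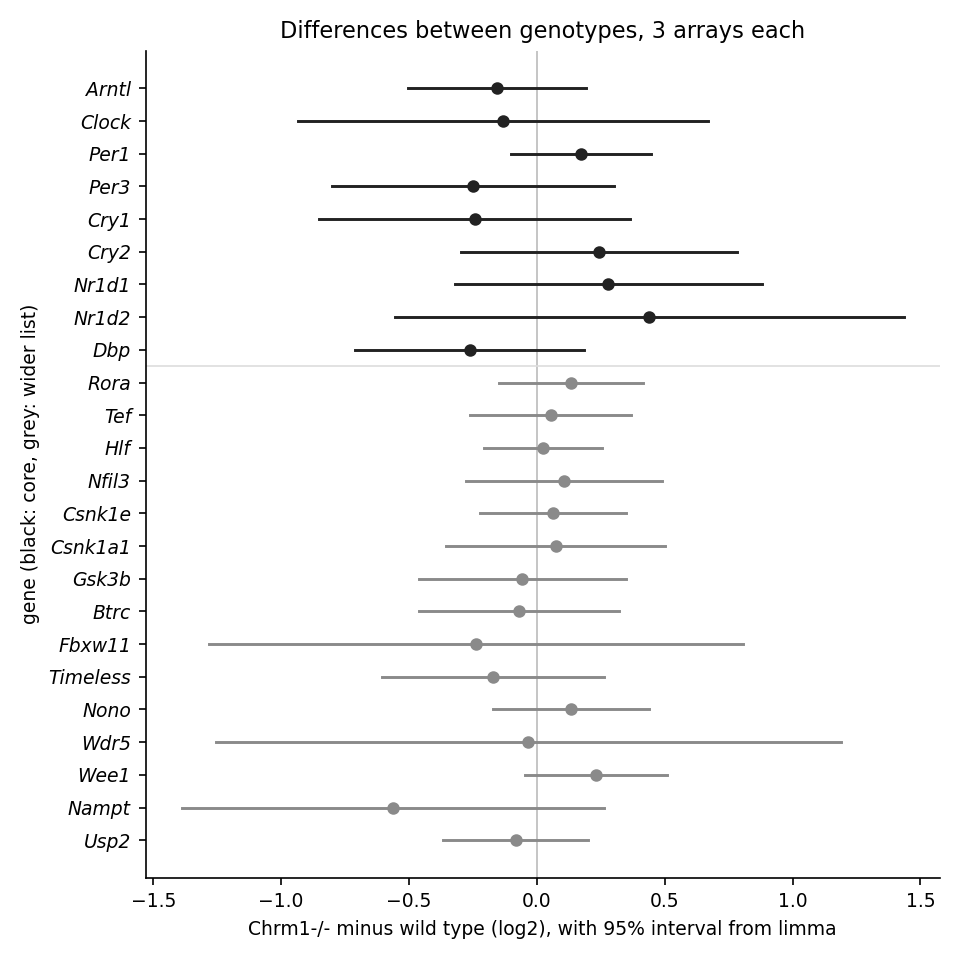
Difference of mean log2 signal, Chrm1-/- minus wild type (horizontal axis), with its 95% interval from limma for the 9 core genes (black) and the 15 tested genes of the wider clock list (grey). Every interval includes 0, and the interval of Per1 (-0.10 to 0.45) is the narrowest of the core genes, while that of Nr1d2 (-0.55 to 1.43) is the widest.

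The other genes of the pathway were taken from a list of 24 partners, regulators and outputs of the clock, of which 21 were analysed here and 15 were bright enough to be tested. Among these 15, 8 had a higher and 7 a lower mean in Chrm1-/-, their median difference was 0.02 (-0.04 without Chrm1-/- replicate 1), and 0 passed in limma by adjusted p or at an unadjusted p under 0.05. Wee1, a kinase that holds back mitosis and an E-box target of the clock, was the 1 gene whose groups did not overlap, 6.67% of the 15 beside 5.79% of all tested genes. It read 9.78, 9.78 and 9.76 in wild type, and in Chrm1-/- 9.86 on replicate 1 and 10.15 on replicate 3 with replicate 2 between them. This was a difference of 0.23 ± 0.11 (SE) with a 95% interval from -0.05 to 0.51. Its adjusted p was 0.996 in limma, and its unadjusted p of 0.09 became 0.0416 without Chrm1-/- replicate 1.

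Nampt, which encodes an enzyme of NAD synthesis under clock control, had the largest difference of the wider list. It read 9.94, 10.26 and 9.42 in wild type and 8.96, 9.01 and 9.96 in Chrm1-/-. Chrm1-/- replicate 3 lay among the wild type arrays, and the difference of -0.56 ± 0.34 (SE) was -0.89 without it. In limma its unadjusted p was 0.147 over all arrays, with an adjusted p of 0.996. Without Chrm1-/- replicate 3 the unadjusted p was 0.0206, in a fit where 337 genes had one under 0.05. Rora, an activating receptor at the same elements as REV-ERB, differed by 0.13 ± 0.12 (SE), Nono, a binding partner of PER proteins, by 0.13 ± 0.13 (SE), and the deubiquitinase gene Usp2 by -0.08 ± 0.12 (SE). Timeless, which acts mainly at replication forks in mammals, differed by -0.17 ± 0.18 (SE), with wild type replicate 3 at 7.86 and the other 5 arrays between 7.23 and 7.39.

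Among the other D-box factors, Hlf, a transcription factor of HSCs, read 9.68 on 5 arrays and 9.61 on wild type replicate 2. Nfil3, which represses through the D-box, differed by 0.11 ± 0.16 (SE). Npas2, which can replace CLOCK, and Bhlhe40, an E-box repressor, had mean signals of 6.59 and 6.23, under the level needed for testing, with differences of 0.15 and -0.11. Rorb, also under that level at 5.86, was the 1 gene of the wider list with an unadjusted p under 0.05 once dim genes were fitted too. Its p was then 0.0494 and its adjusted p 0.997 in limma, with groups that did not overlap, and it is named here because of that value.

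The arms of the clock were then compared across the arrays, to see whether genes of an arm moved together and whether Arntl moved against the genes it activates. The signs were evenly split. Of the 36 pairs among the 9 genes, 18 correlated positively and 18 negatively over the 6 arrays, and the median Pearson r was -0.0076. Period and cryptochrome genes were counted as separate arms. Of the 4 pairs within an arm, 3 were negative: Arntl and Clock at -0.40, Per1 and Per3 at -0.13, and Cry1 and Cry2 at -0.56. The remaining pair, Nr1d1 and Nr1d2, had an r of 0.03. Taking Per and Cry genes as 1 repressor arm adds Per1 and Cry2 at 0.73, Per1 and Cry1 at -0.13, Per3 and Cry1 at -0.04, and Per3 and Cry2 at -0.02. These values are over 6 arrays that share amplification and normalization.

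**Figure D3:**
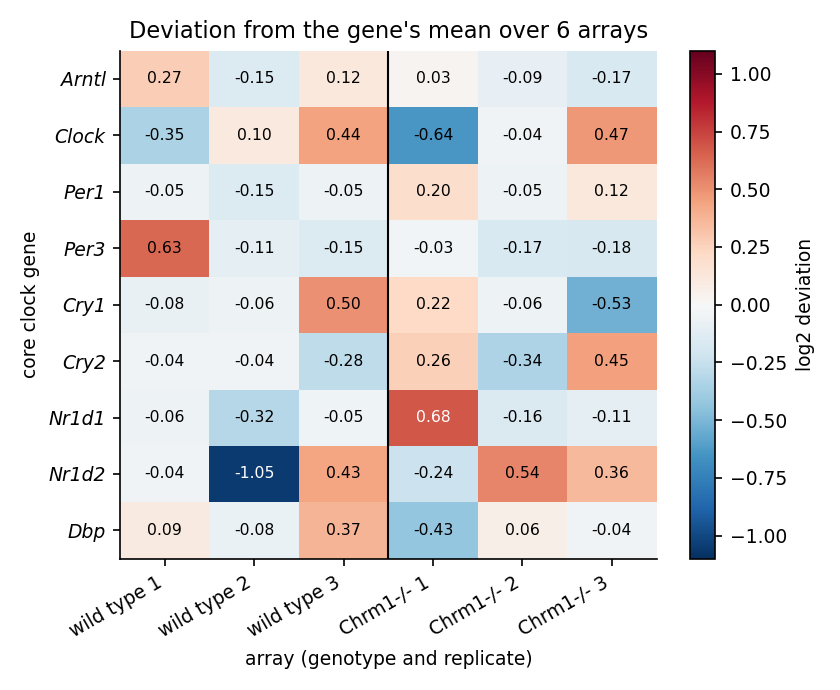
Deviation of each core clock gene (rows) from its own mean over the 6 arrays, in log2 units, on each array (columns, 3 wild type left of the line and 3 Chrm1-/- right of it). Red cells lie above and blue cells below the gene's mean; no column is of one colour, and the strongest cells are Nr1d2 on wild type 2 (-1.05), Nr1d1 and Clock on Chrm1-/- 1 (0.68 and -0.64) and Per3 on wild type 1 (0.63).

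Chrm1-/- replicate 1 shows how the arms came apart on a single array. Nr1d1 and Per1, which are activated through E-boxes like Dbp, were highest there, at 0.68 and 0.20 above their means. Dbp and Clock were lowest there, at -0.43 and -0.64. Nr1d2 was also below its mean on that array, at -0.24, and Arntl was near its mean at 0.03. The T cell gene Cd3g, 1 of 6 T and NK cell markers and dim at a mean of 5.62, was also highest there. It read 7.16 beside at most 6.32 elsewhere. The other markers of that list did not follow it. Cd3e, Cd4 and Ncr1 were higher on wild type replicate 3, Cd8a shared its highest value with other arrays, and Klrb1c was lowest on Chrm1-/- replicate 1. The part of Cd3g in these values was not tested.

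For 9 pairs across or within arms, exact permutation tests over the 6 arrays were made, two-sided and adjusted over the 9. Arntl and Per3 had an r of 0.79 (exact permutation p = 0.0458, adjusted 0.413) and a Spearman rho of 0.71 (exact permutation p = 0.136, adjusted 0.592). It was the 1 pair of the 9 with an unadjusted p under 0.05, and none passed after adjustment. In the loop, Arntl is high at hours of the day when Per genes are low. The hour of collection is not stated, so the sign of this r cannot be set against that relation. Wild type replicate 1 was the highest array of both genes, and without it r was 0.34. The r was 0.80 over the 4 arrays left after the 2 farthest from the Arntl median were taken out. Among those 4, Chrm1-/- replicate 1 was the highest for both genes.

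Arntl and Nr1d1, a target and its repressor by way of elements such as the RORE core printed above, had an r of 0.26 (exact permutation p = 0.682, adjusted 0.877) and a rho of 0.60 (exact permutation p = 0.242, adjusted 0.592). The r was 0.91 over the 4 arrays without the 2 farthest, among which Chrm1-/- replicate 1 was the highest for both genes (7.39 and 8.26). Neither r was negative, but the hour of collection is not stated, so the sign cannot be set against the loop. Arntl and Dbp had an r of 0.31 (exact permutation p = 0.564, adjusted 0.846) and a rho of 0.54 (exact permutation p = 0.297, adjusted 0.592). That r turned to -0.80 without the 2 farthest arrays, wild type replicates 1 and 3. Among the arrays left, Chrm1-/- replicate 1 was the highest for Arntl and the lowest for Dbp.

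Dbp and Nr1d1, both E-box outputs, had an r of -0.65 (exact permutation p = 0.244, adjusted 0.733) and a rho of 0.09 (exact permutation p = 0.919, adjusted 1). The relation rested on Chrm1-/- replicate 1, since r was 0.68 without it. Dbp and Per3, whose promoter stretch holds the D-boxes shown, had an r of 0.05 (exact permutation p = 0.858, adjusted 0.966) and a rho of -0.09 (exact permutation p = 0.919, adjusted 1). Without wild type replicate 1 the r of this pair was -0.74, and without the 2 farthest arrays, wild type replicate 3 and Chrm1-/- replicate 1, it was 0.64.

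Nr1d1 and Nr1d2 had an r of 0.03 (exact permutation p = 0.985, adjusted 0.985) and a rho of 0.03 (exact permutation p = 1, adjusted 1). That value joined opposite readings: r was 0.78 without Chrm1-/- replicate 1, -0.80 without wild type replicate 2 and -0.59 without both. Cry1 and Cry2 had an r of -0.56 (exact permutation p = 0.244, adjusted 0.733) and a rho of -0.46 (exact permutation p = 0.372, adjusted 0.592). Without Chrm1-/- replicate 3 the r was -0.05, and without the 2 farthest arrays it was 0.80. Among the arrays left in that last case, Chrm1-/- replicate 1 was the highest for both genes.

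Arntl and Clock had an r of -0.40 (exact permutation p = 0.414, adjusted 0.745) and a rho of -0.54 (exact permutation p = 0.297, adjusted 0.592), with -0.97 over the 4 arrays. Cry1 and Nr1d1, linked because REV-ERB represses Cry1, had an r of 0.36 (exact permutation p = 0.392, adjusted 0.745) and a rho of 0.46 (exact permutation p = 0.394, adjusted 0.592), with 0.96 over the 4 arrays. In both cases Chrm1-/- replicate 1 was among the 4 arrays, where it was the highest for Arntl, Cry1 and Nr1d1 and the lowest for Clock. No test was made of an r over 4 arrays. With genotype means subtracted first, the 9 r ran from -0.57 to 0.74.

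**Figure D4:**
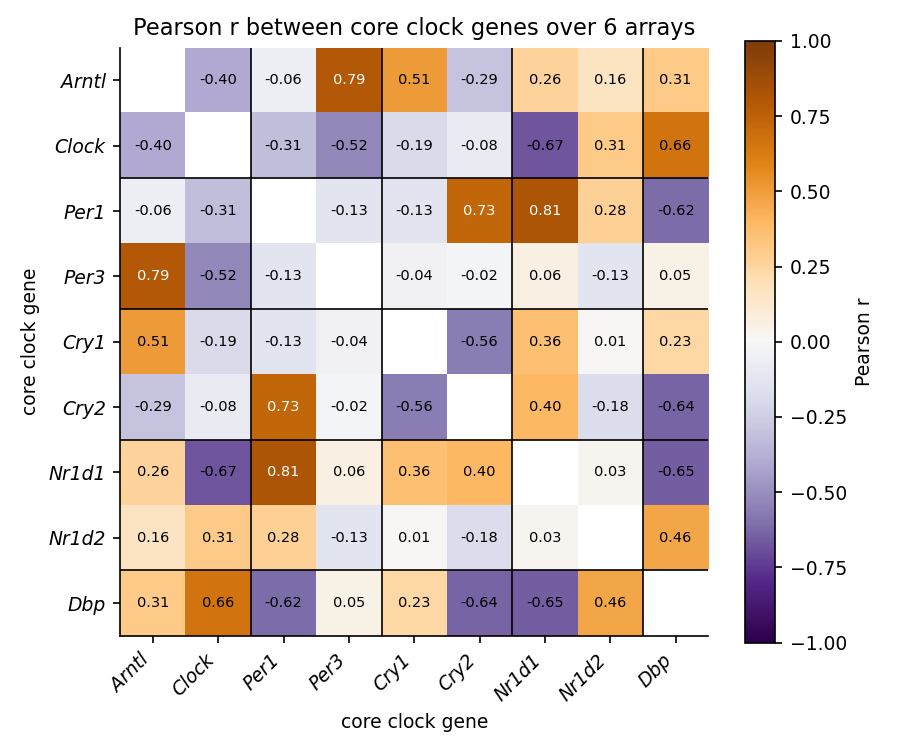
Pearson r over the 6 arrays for each pair of core clock genes (both axes), with lines between the arms and orange for positive and purple for negative values. The highest r of the 36 is 0.81, between Per1 and Nr1d1, the lowest is -0.67, between Clock and Nr1d1, and the blocks along the diagonal that hold an arm are pale or purple.

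The highest r of the 36 pairs joined Per1 and Nr1d1, at 0.81, and both were highest on Chrm1-/- replicate 1. Per1 and Cry1, which each hold an E-box in the stretches printed above, had an r of -0.13. Among the 10 pairs of the E-box outputs Per1, Per3, Nr1d1, Nr1d2 and Dbp, 6 were positive and 4 negative. Arntl correlated positively with 4 of these 5 genes and at -0.06 with Per1. With genotype means subtracted first, 20 of the 36 pairs were positive, Arntl and Per1 were at 0.51 and Per1 and Per3 at 0.31. Nr1d2 and Dbp then had the highest r of the 36, at 0.90, where they had 0.46 before.

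The genes whose pattern was most like that of Arntl over the 6 arrays were Gopc, Cenpc1 and Slc35d3, with Pearson r of 0.99, 0.98 and 0.98. For Dbp they were Cirbp, which encodes a cold-inducible RNA-binding protein, Fbxw9 and Efr3b, with r of 0.99, 0.98 and 0.98. Cirbp varied little, between 7.54 and 7.70. With 6 arrays such values are common: 56 genes had an r over 0.9 with Arntl and 111 with Dbp, beside a median of 89 for all tested genes.

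Across the series as a whole, array medians lay between 6.49 and 6.57 and the median SE of a difference was 0.17. The number of arrays limits the precision. Kit, whose protein the sort selected for, read 10.90 in wild type, and Cd34, which is not among the sort markers given above, read 11.24. Transcripts of Flt3, whose protein the sort selected against, read 9.99. The 9 genes of the list of HSC and sort genes on the arrays split into 4 higher and 5 lower in Chrm1-/-. Flt3, which marks cells that the sort left out, was among the higher ones, with a difference of 0.18. Procr, an HSC surface receptor, had groups that did not overlap, at 8.40, 8.45 and 8.50 in wild type and 8.16, 8.19 and 8.24 in Chrm1-/-, with an unadjusted p of 0.0393 and an adjusted p of 0.996 in limma. Granulocyte and mast cell markers, 5 of 7 lower, summed to between 62.98 and 63.25 in wild type and between 60.64 and 63.21 in Chrm1-/-. Of the 4 megakaryocyte markers on the arrays, 2 were higher and 2 lower. The platelet gene Pf4 differed by -0.88 with an unadjusted p of 0.0532 in limma, and its Chrm1-/- replicate 2 at 9.44 lay among the wild type arrays. The differences of Itga2b, Ppbp and Gp9 were -0.04, 0.10 and 0.0033. The 6 T and NK cell markers had means under the level needed for testing. Their sum on an array was highest on Chrm1-/- replicate 1, at 37.79. That rank rested on Cd3g, which read 7.16 there beside 4.87 to 6.32 on the other arrays. Cd3e, Cd4 and Ncr1 were higher on wild type replicate 3, and Klrb1c was lowest on Chrm1-/- replicate 1. Of the B cell genes, Cd79a and Cd79b read 7.25 and 9.11 on that array, below wild type replicate 3 at 7.77 and 9.26 and above the other 4 arrays. Ebf1 was highest there at 6.35, while Pax5 at 7.40 and Vpreb1 at 5.25 lay within the range of the other arrays. Monocyte and macrophage markers, 4 of 5 lower in Chrm1-/-, summed to between 40.16 and 43.06 in wild type and between 38.76 and 40.76 in Chrm1-/-, with Cd68 at -1.07. Erythroid markers, 3 of 3 higher, summed to between 25.34 and 26.14 and between 25.90 and 26.78, and the part of any of these markers in the clock gene values was not tested. Chrm1 itself read between 7.44 and 7.67 in wild type and between 7.52 and 8.16 in Chrm1-/-, and it does not check the labels, since the sources used here do not state which part of the gene its probes cover.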

How the data were processed

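The authors deposited log2 signals, with 2 decimals for each cluster on each array; the log2 scale was taken from the range of the values. Per the series design text, RNA from sorted cells was amplified with a NuGEN system, hybridised to Affymetrix mouse gene 2.0 ST arrays and processed in the Affymetrix analysis software; the sources used here do not name the summarization, normalization or build. Rows were named by the platform annotation, rows with several symbols were dropped, and the row of highest mean was kept per gene. Genes with a mean at or above the median were fitted with limma 3.58.1 in R 4.3.3 (lmFit, eBayes, two-sided, Benjamini-Hochberg over all 11094 genes). Whether replicates are separate mice is not stated, so p-values reflect the array-to-array spread alone, and this may be technical. Correlations were tested by listing all 720 orderings in Python 3.11.15 (numpy 2.4.6); of 12 pairs chosen, 3 with Per2 could not be computed. The scripts were tested on simulated data.

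Named genes are the 9 members, the 6 genes of smallest unadjusted p and 5 set genes of the wider list, the 3 genes most like Arntl and Dbp, Chrm1 and 3 glucocorticoid genes. Members and lists were chosen with earlier results of these data known. Of the wider list, 3 genes were not analysed here. The RefSeq gene table shows Nr1d1 overlapping Thra, Dbp overlapping Sphk2, Per3 overlapping Uts2, and Clock overlapping the pseudogene Ube2n-ps1; whether the array's probes separate them was not tested. Alternatives covered the filter, normalization, rows per gene, moderation, array weights, a replicate block and leaving out each array.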

Additional observations from a re-analysis of the deposited data

How the results depend on the processing

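Over the 8 alternatives that kept all arrays, the difference of each core gene kept its sign and its side of the adjusted threshold wherever it was tested, and 0 core genes had an unadjusted p under 0.05. Array weights moved the value by over 1.5 times for Nr1d2 (0.44 to 0.75), Dbp (-0.26 to -0.16), Clock (-0.13 to -0.05) and the core median (-0.13 to -0.05). The median of the wider list, 0.02, turned to -0.017 with the filter at the 75th percentile, -0.005 with the mean of all rows of a gene and -0.014 with array weights. With the filter at the 75th percentile 3 core genes were left, 1 of them higher in Chrm1-/-, and 169 genes had an unadjusted p under 0.05; with no filter 567 did, among them 1 of the wider list. The labels do not say whether the replicate numbers pair the arrays. Same-numbered deviations correlated at -0.03, 0.0088 and -0.01 over all tested genes, which does not exclude pairing for some of them. With the number as a replicate block in limma, 396 genes had an unadjusted p under 0.05, 0 core genes among them, against 332 without. The Clock SE was 0.14 with the block and 0.33 without it. On leaving out 1 array, genes with an unadjusted p under 0.05 ran from 337 to 521, genes with an adjusted p under 0.05 from 0 to 1, core genes with an unadjusted p under 0.05 from 0 to 1 and those of the wider list from 0 to 1. Differences that changed sign ran from -0.40 to 0.15 for Clock, -0.39 to 0.0033 for Per3, -0.043 to 0.14 for Tef, -0.023 to 0.18 for Nfil3, -0.093 to 0.23 for Csnk1a1, -0.20 to 0.087 for Gsk3b, -0.23 to 0.043 for Btrc, -0.51 to 0.16 for Fbxw11, -0.31 to 0.01 for Timeless and -0.40 to 0.45 for Wdr5. With array weights Csnk1a1 was at -0.037. Correlations that changed sign on leaving out 1 array ran from -0.74 to 0.30 for Dbp and Per3, -0.80 to 0.78 for Nr1d1 and Nr1d2, and -0.85 to 0.68 for Dbp and Nr1d1. Without the 2 farthest arrays the r of Arntl and Dbp was -0.80, of Dbp and Nr1d1 0.73, of Nr1d1 and Nr1d2 -0.59 and of Cry1 and Cry2 0.80. With genotype means subtracted Dbp and Per3 were at -0.26 and Nr1d1 and Nr1d2 at -0.18, and after quantile normalization Dbp and Per3 were at -0.017. The cause of these changes was not tested.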

Other observations

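Several clock genes had exactly the same deposited value on several arrays. Hlf was at 9.68 on 5 of the 6, Csnk1e held only the values 7.84 and 8.03, each on 3 arrays, and Per1, Tef and Gsk3b each had 3 equal values. Over all tested genes, 9.74% had at least 3 equal values among the 6 arrays and 0.343% had at least 5. The values are rounded to 2 decimals. Equal values did not always go with a small SD: over the 6 arrays that of Hlf lay at percentile 0.604 of all tested genes and that of Gsk3b at 41.7, while Ms4a3, a granulocyte precursor marker, had 4 equal values at 7.55 and an SD at percentile 87.9. Of the 9 core genes, 7 had an SD above the median SD of all tested genes, with Clock at percentile 84.8 and Nr1d2 at 93.2, and Per1 was the lowest at 21.5.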
